A study of Drosophila melanogaster with 4 samples.

Results

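The genes described here are the protein-coding genes of chromosome 4 of Drosophila melanogaster, measured in ovaries after a germline knockdown of the nucleoporin Nup358 and in Control ovaries. Members were taken by position from an NCBI RefSeq gene table, which lists 80 protein-coding genes on chromosome 4. The gene gw and genes with symbols beginning RpL, RpS or eIF, 3 genes in all, were set aside. Of the 77 members that remained, 75 had rows in the deposited table, among 13774 protein-coding genes with rows. CG33941 and CG46466 had none.

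Chromosome 4 is the small dot chromosome of the fly. Its genes sit among repeats and bear marks of heterochromatin, yet many are transcribed. The protein Pof binds along it, and the methyltransferase Eggless (egg) places much of its H3K9 methylation. Heterochromatin protein 1 binds there as well. The chromosome carries ci, the nuclear effector of the Hedgehog pathway, and pan, that of the Wnt pathway, beside Pax-family factors, plexins, an ephrin with its receptor, and TGF-beta ligands.

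Poly(A)-enriched RNA was sequenced from 2 Nup358GLKD libraries (germline knockdown of Nup358) and 2 Control libraries (the cross written mat>Luc, with no further account of the driver). All were from adult ovaries, and each library pooled the ovaries of several flies, 10 to 15 pairs by the extraction protocol. A germline knockdown is directed at germ cells, and whole ovaries also hold somatic cells. The labels call the libraries biological repeats without naming separate crosses, so a p-value here sets a difference against the spread of these libraries alone, which may be technical.

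The libraries held 58876800 to 60792292 expected counts. Levels are given as CPM, counts relative to the library total after TMM scaling, and a gene passed when the adjusted p of edgeR's quasi-likelihood test, corrected by the Benjamini-Hochberg method over 10210 tested features, was under 0.05. Nup358 itself had 283 and 151 CPM in the Nup358GLKD libraries, against 662 and 624 CPM in the Control libraries (log2 change −1.57, adjusted p = 0.0525). It passed as lower with library totals (0.0419), DESeq2 (0.000182), limma-voom (0.0466), the replicate block (0.0295) and without either Nup358GLKD library, within a range of 8.61e-05 to 0.293 over the alternatives. The knockdown libraries differed more from each other than the Control libraries did. Among the tested chromosome 4 genes, the SD of the log2 difference between replicates was 0.659 for Nup358GLKD and 0.182 for Control.

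Chromosome 4 genes were more often higher than lower in the knockdown. Of 69 tested members, 13 rose and 2 fell, leaving 54 that missed the threshold. The share that rose was 18.8% of tested members, beside 9.54% of all tested features, and the share that fell was 2.9%, beside 9.02%. The median log2 change of the tested members was 0.42 (quartiles 0.023 and 1.13), against 0.013 over all tested features. A positive log2 change was found for 52 members (75.4%, beside 50.7% of all features). For 44 members the lower Nup358GLKD value exceeded the higher Control value (63.8%, beside 37.9%), and the converse held for 11 members (15.9%, beside 39.8%). At an unadjusted p under 0.05, 29 members were higher, beside 23.2% of all features, and 4 were lower, beside 22%. These counts describe the members and were not tested as a set. The filter can admit a low gene through its higher group alone. With no filter, the median was 0.37 over all 75 members with rows, against 0.17 over all features, and 9 members rose and 1 fell (5.06% of all features rose and 5.17% fell).

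The 13 calls of higher genes depended on which libraries were compared. Calls became more frequent across all features when a knockdown library was left out. Without Nup358GLKD replicate 1, 40 members rose and 9 fell, beside 29.1% and 32.9% of all features. Without Nup358GLKD replicate 2, 38 members rose and 15 fell, beside 35.5% and 39.7% of all features. Without Control replicate 1 or Control replicate 2 no member passed in edgeR (7 and 6 were higher and 0 lower at an unadjusted p under 0.05), and no other feature passed either. With upper-quartile factors 19 members rose and 0 fell, beside 11.2% and 6.93% of all features. With DESeq2 27 rose and 4 fell, beside 18.9% and 19% of all features. With RefSeq rows left unsummed no row of a member passed, and 1 of all 20393 rows did.

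No other large chromosome arm had such a median. Tested protein-coding genes had a median log2 change of −0.019 on X (1603 genes), −0.065 on 2L (1705), −0.036 on 2R (1892), −0.025 on 3L (1804) and −0.066 on 3R (2241). The share of genes that rose was between 8.11% on X and 9.94% on 2R, and the share that fell between 8.91% on 2L and 10.5% on X. Each knockdown library showed the chromosome 4 difference on its own. Relative to the Control mean, the members' median log2 ratio was 0.39 in Nup358GLKD replicate 1 and 0.38 in Nup358GLKD replicate 2, whereas the 5 other arms lay between −0.15 and 0.00018 in replicate 1 and between −0.086 and −0.016 in replicate 2.

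**Figure D1:**
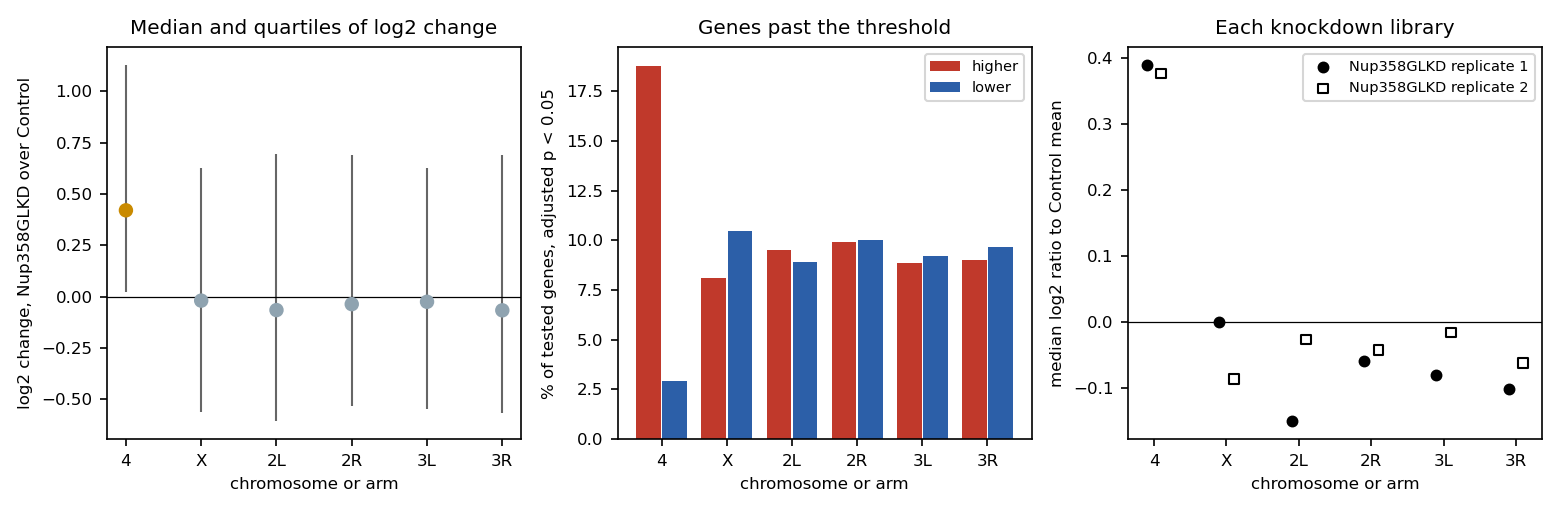
Log2 change of Nup358GLKD over Control by chromosome or arm, for the 69 tested members on chromosome 4 and the tested protein-coding genes of each other arm. Left, points are medians and lines run from the first to the third quartile, with 0.42 on chromosome 4 and medians of −0.066 to −0.019 elsewhere. Centre, bars give the percentage of tested genes past an adjusted p of 0.05, with 18.8% higher and 2.9% lower on chromosome 4. Right, points give the median log2 ratio of each knockdown library over the mean of Control, with 0.39 and 0.38 on chromosome 4.

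Summed over all members, chromosome 4 supplied 0.839% and 0.934% of the protein-coding counts in the Nup358GLKD libraries, against 0.780% and 0.791% in the Control libraries. The means were 0.887% ± 0.0669 in Nup358GLKD and 0.786% ± 0.00815 in Control (SD, n = 2 each). Both knockdown libraries were above both Control libraries, and the exact two-sided permutation test gave p = 0.333, the smallest that 2 against 2 libraries allow. ATPsynbeta was the most abundant member. Without it the shares were 0.631% and 0.732% in the Nup358GLKD libraries and 0.615% and 0.630% in the Control libraries.

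The difference was seen among genes of low, medium and high level. Low genes as a whole leaned upward in the knockdown, so members were set beside other protein-coding genes of the same mean CPM over the 4 libraries. Under 5 CPM the median log2 change was 1.32 for 17 members and 1.01 for 2298 other genes. From 5 to 50 CPM it was 0.35 for 16 members and −0.37 for 3184 other genes. At 50 CPM or more it was 0.20 for 36 members and −0.056 for 3763 other genes. In the top class 16.7% of the members rose, against 7.68% of the other genes.

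**Figure D2:**
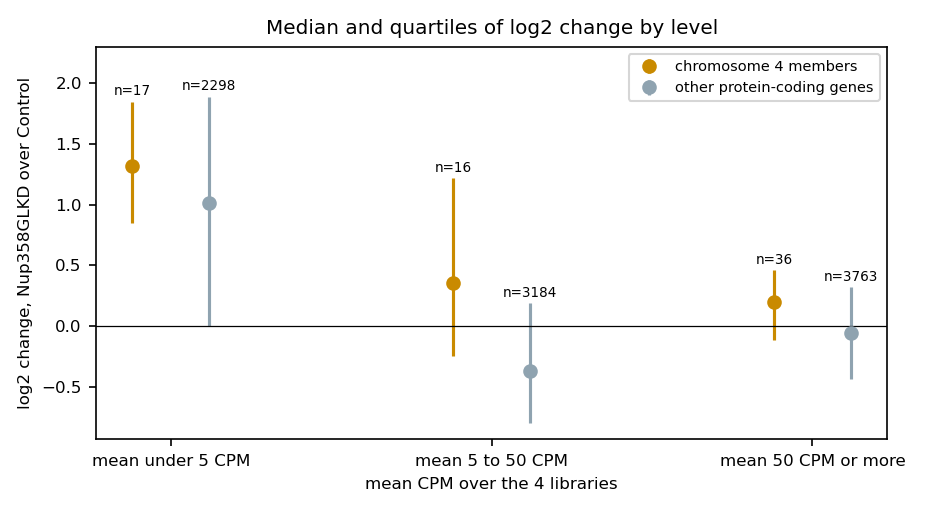
Log2 change of Nup358GLKD over Control by mean CPM over the 4 libraries. Points are medians, lines run from the first to the third quartile, and n is the number of tested genes. Members of chromosome 4 had the higher median in each of the 3 classes, with 1.32, 0.35 and 0.20 against 1.01, −0.37 and −0.056.

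The pattern ran along the whole chromosome. From the centromere-proximal end to the telomere, the median log2 change was 0.37, 0.34 and 0.50 in consecutive groups of 23 tested members, and 3, 5 and 5 members rose. Across the 68 pairs of neighbouring tested members, 41 had changes of the same sign, and Spearman's rho between neighbours was 0.056 (a description across genes that share the same libraries). In 5 pairs both neighbours passed. They rose together in ci and pan, Gat and Ekar, and sv and Cals, and moved in opposite directions in PlexB and ci, and in 4E-T and fuss.

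**Figure D3:**
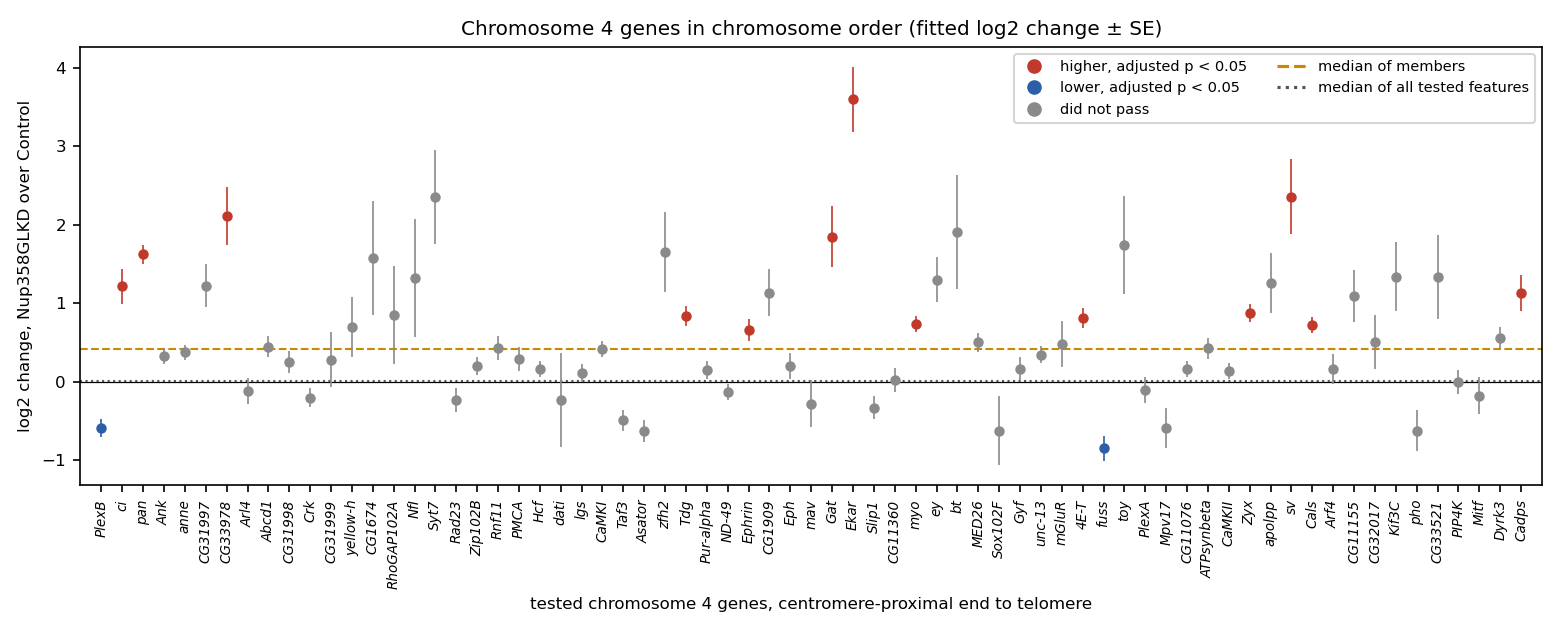
Fitted log2 change of Nup358GLKD over Control for the 69 tested members, in chromosome order from the centromere-proximal end (left) to the telomere (right). Points are fitted values with standard errors, coloured by whether adjusted p was under 0.05, and the dashed line is the members' median of 0.42 beside the dotted median of 0.013 over all tested features. The 13 genes that rose lie along the whole length, from ci to Cadps.

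Transcription factor genes of chromosome 4 included pan, the member with the smallest adjusted p. Of 17 tested factors and cofactors 3 rose (pan, ci and sv) and 1 fell (fuss), which is 17.6% and 5.88%, beside 9.54% and 9.02% of all features. Their median log2 change was 0.16. The Wnt effector pan, the fly TCF, had 60.9 and 57.0 CPM in the Nup358GLKD libraries, against 19.5 and 18.8 CPM in the Control libraries. Both knockdown values were well above both Control values, with means of 59.0 ± 2.77 and 19.2 ± 0.444 CPM (SD, n = 2 each). The gene rose 3.08-fold (log2 change 1.62, SE 0.12, adjusted p = 0.0275). The Hedgehog effector ci, a Gli-type factor, had 40.2 and 28.2 CPM in the Nup358GLKD libraries, against 15.1 and 14.4 CPM in the Control libraries. It rose 2.32-fold (log2 change 1.21, SE 0.22, adjusted p = 0.0418), and the knockdown replicates differed from each other more than the Control replicates did.

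The Pax2-type gene sv was close to the limit of detection. It had 0.605 and 0.398 CPM in the Nup358GLKD libraries, against 0.0958 and 0.0975 CPM in the Control libraries, and rose (adjusted p = 0.0473). These are 58 counts over both knockdown libraries and 12 over both Control libraries, a 5.18-fold ratio whose exact 95% counting interval ran from 2.75 to 10.6. The call was lost with DESeq2 (0.0509), without a filter (0.0605) and with the replicate number as a block (0.0562), within a range of 0.00928 to 0.374 over the alternatives. The Pax6 genes ey and toy, known for eye development, did not pass in the reported fit. Of these, ey had 1.44 and 1.38 CPM in the Nup358GLKD libraries and 0.591 and 0.553 CPM in the Control libraries. It lay just outside the threshold (log2 change 1.30, adjusted p = 0.0519). As higher, ey passed with upper-quartile factors (0.0482) and DESeq2 (0.0448), but not with limma-voom (0.0505) or the replicate block (0.0709). For toy the values were 0.571 and 0.243 CPM in Nup358GLKD and 0.128 and 0.114 CPM in Control (adjusted p = 0.113).

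The fuss gene, which encodes a Ski/Sno-family corepressor, was the transcriptional regulator that fell. It had 8.10 and 8.25 CPM in the Nup358GLKD libraries, against 15.2 and 14.3 CPM in the Control libraries, a 1.8-fold lower level (log2 change −0.85, SE 0.16, adjusted p = 0.0413). The groups did not overlap, but the call was lost with upper-quartile factors (0.0504) and with the replicate block (0.061), within a range of 0.000956 to 0.387. The other factors had smaller or less regular differences. The Polycomb-recruiting DNA-binding protein gene pho had 54.2 and 86.4 CPM in Nup358GLKD and 105 and 111 CPM in Control without passing (log2 change −0.62, adjusted p = 0.142). Taf3, a subunit of the general factor TFIID, had 108 and 129.8 CPM in Nup358GLKD and 169 and 165 CPM in Control (adjusted p = 0.072). The Wnt cofactor lgs, which joins Armadillo to its coactivators, had 203 and 230.2 CPM in Nup358GLKD and 197 and 205.4 CPM in Control (adjusted p = 0.499). The groups were apart for pho and Taf3 and overlapped for lgs. The zinc-finger homeodomain gene zfh2 had 4.76 and 2.09 CPM in Nup358GLKD and 1.04 and 1.13 CPM in Control (log2 change 1.65, adjusted p = 0.0858), and its exons overlap those of Tdg on the other strand. The Mediator subunit gene MED26 had 297 and 337 CPM in Nup358GLKD and 214 and 234 CPM in Control (adjusted p = 0.0612). Mitf, a bHLH-zipper factor gene, had 175 and 268 CPM in Nup358GLKD, on either side of 247 and 254 CPM in Control (adjusted p = 0.573).

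Other genes of the pathways that ci, pan and pho serve are mostly on other chromosomes. Of 9 Hedgehog pathway genes 5 fell and 0 rose in edgeR (55.6% and 0%, beside 9.02% and 9.54% of all features). Their median log2 change was −0.58. At an unadjusted p under 0.05, 2 were higher and 5 lower, beside 23.2% and 22% of all features. DESeq2 called 2 higher and 5 lower, beside 18.9% and 19%, and limma-voom called 0 higher and 5 lower. The kinesin-like scaffold gene cos fell 1.5-fold, the ci inhibitor gene Su(fu) 1.51-fold, the receptor partners ihog and boi 1.63-fold and 1.53-fold, and disp, needed to release the ligand, 1.56-fold (adjusted p = 0.0408, 0.047, 0.0397, 0.0452 and 0.0464). Of these, cos, Su(fu), boi and disp did not pass with upper-quartile factors, nor any of the 5 with the replicate block. The receptor gene ptc, a known transcriptional target of ci in Drosophila, had 10.3 and 4.10 CPM in Nup358GLKD and 2.68 and 2.16 CPM in Control. It did not pass in edgeR (adjusted p = 0.101) or limma-voom (0.135) but passed as higher with DESeq2 (0.018). The ligand gene hh had 1.40 and 0.532 CPM in Nup358GLKD and 0.128 and 0.179 CPM in Control (log2 change 2.63, adjusted p = 0.0703). It passed as higher with DESeq2 (0.0182), with the replicate block (0.0408) and without either Nup358GLKD library, within a range of 0.00128 to 0.351.

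Among 13 tested Wnt pathway genes 1 fell and 0 rose in edgeR (7.69% and 0%, beside 9.02% and 9.54% of all features). At an unadjusted p under 0.05, 1 was higher and 2 were lower, beside 23.2% and 22% of all features. DESeq2 called 2 higher and 2 lower, beside 18.9% and 19%, and limma-voom called 0 higher and 1 lower. The gene that fell in edgeR was pygo, the nuclear partner of lgs. It had 122 and 111 CPM in the Nup358GLKD libraries against 201 and 179.6 CPM in the Control libraries (1.63-fold lower, adjusted p = 0.0385). That call was lost with upper-quartile factors and when the filter was raised to 5 CPM. Of 10 Polycomb group genes listed as partners of pho, 0 passed in edgeR, with a median log2 change of −0.26. At an unadjusted p under 0.05, 1 of these 10 was higher and 2 were lower, beside 23.2% and 22% of all features. DESeq2 called 1 higher and 3 lower, beside 18.9% and 19%, and limma-voom called 0.

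Of 16 tested signalling and guidance genes 2 rose (myo and Ephrin) and 1 fell (PlexB), which is 12.5% and 6.25% and near the 9.54% and 9.02% of all features. Their median log2 change was 0.064. The TGF-beta ligand gene myo (myoglianin) had 96.9 and 99.4 CPM in the Nup358GLKD libraries, against 58.0 and 60.2 CPM in the Control libraries. The replicates were close within each group, and myo rose 1.66-fold (log2 change 0.73, SE 0.10, adjusted p = 0.033). The ligand gene mav had 19.8 and 34.2 CPM in Nup358GLKD, around the 33.1 and 32.6 CPM in Control (adjusted p = 0.487). Actbeta was below the filter, with 21 counts over both knockdown libraries and 7 over both Control libraries, a 3.22-fold ratio whose counting interval ran from 1.32 to 8.95. Of 11 activin and TGF-beta pathway genes elsewhere in the genome, 1 rose and 0 fell in edgeR (9.09% higher, beside 9.54% of all features). A positive log2 change was found for 9 (81.8%, beside 50.7%). At an unadjusted p under 0.05, 3 were higher and 0 lower, beside 23.2% and 22% of all features. DESeq2 called 3 higher and 0 lower, beside 18.9% and 19%, and limma-voom called 1 higher and 0 lower. The gene that rose in edgeR was put, which encodes a type II receptor. It had 104 and 114 CPM in Nup358GLKD against 70.5 and 74.2 CPM in Control (adjusted p = 0.0425). That call was lost with library totals, no filter or the replicate block.

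Ephrin, the membrane-bound ligand, had 118 and 143 CPM in the Nup358GLKD libraries, against 82.9 and 82.8 CPM in the Control libraries, and rose 1.58-fold (log2 change 0.66, SE 0.14, adjusted p = 0.0491). The call was lost with library totals (0.0729) and without a filter (0.0721), within a range of 0.000294 to 0.393. Its receptor gene Eph, also on chromosome 4, had 124 and 162 CPM in Nup358GLKD and 121 and 128 CPM in Control, with overlapping groups (adjusted p = 0.394). The semaphorin receptor gene PlexB had 103 and 116 CPM in the Nup358GLKD libraries, against 166 and 165 CPM in the Control libraries, and fell 1.51-fold (log2 change −0.59, SE 0.11, adjusted p = 0.0439). That call was lost with upper-quartile factors (0.0525), without a filter (0.0523), with the filter raised to 5 CPM (0.0508) and with the replicate block (0.0513), within a range of 0.000296 to 0.374.

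The related PlexA had 353 and 457 CPM in Nup358GLKD and 429 and 446 CPM in Control without passing (adjusted p = 0.62). Whether the 2 plexins differed in response was not tested. Among 7 tested semaphorin and ephrin partners, 1 rose and 1 fell (14.3% each, beside 9.54% and 9.02% of all features). The plexin ligand gene Sema2a rose 1.41-fold (adjusted p = 0.0468) and Sema1a fell 1.75-fold (adjusted p = 0.0439). Both calls were lost with the replicate block. The Sema2a call was also lost with library totals (0.0605) and without a filter (0.0676). The Sema1a call was also lost with upper-quartile factors (0.0581) and with the 5 CPM filter (0.0598). The kinase gene Asator had 21.5 and 25.4 CPM in Nup358GLKD and 35.9 and 36.7 CPM in Control and just missed the threshold (log2 change −0.63, adjusted p = 0.0556). Slip1 had 68.1 and 84.2 CPM in Nup358GLKD and 94.5 and 97.2 CPM in Control (adjusted p = 0.159). On the upper side, the calmodulin-dependent kinase gene CaMKI had 168 and 166 CPM in Nup358GLKD and 121 and 129 CPM in Control (adjusted p = 0.0587). The kinase gene Dyrk3 had 106 and 131 CPM in Nup358GLKD and 80.4 and 81.4 CPM in Control (adjusted p = 0.0681). The groups were apart for Asator, Slip1, CaMKI and Dyrk3, and none of them passed in the reported fit. CaMKI and Dyrk3, like MED26, passed as higher with upper-quartile factors, with the 5 CPM filter and with DESeq2. Asator, like Taf3, passed as lower with DESeq2 (adjusted p = 0.0113 for Asator and 0.0403 for Taf3).

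Genes of synapses, membrane transport and ion handling all pointed upward. Of 12 tested 4 rose and 0 fell in edgeR, beside 9.54% and 9.02% of all features. At an unadjusted p under 0.05, 9 were higher and 0 lower, beside 23.2% and 22% of all features, and DESeq2 called 6 higher and 0 lower, beside 18.9% and 19%. In all 12 the lower Nup358GLKD value exceeded the higher Control value, which held for 37.9% of all tested features, and the median log2 change was 0.60. Ekar, a kainate-type glutamate receptor gene named for its expression in the eye, had 4.21 and 2.66 CPM in the Nup358GLKD libraries, against 0.287 and 0.276 CPM in the Control libraries. It had the largest change of the tested members, 12.1-fold higher (log2 change 3.59, SE 0.41, adjusted p = 0.0289). Its neighbour Gat, a GABA transporter gene, had 0.413 and 0.465 CPM in Nup358GLKD and 0.128 and 0.114 CPM in Control and lay just inside the threshold (adjusted p = 0.0497). Its 51 and 15 summed counts gave a 3.64-fold ratio whose counting interval ran from 2.02 to 6.98. The Gat call was lost with library totals (0.0531), DESeq2 (0.122), no filter (0.0679) and the replicate block (0.0836), within a range of 0.0294 to 0.426.

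Cadps, which primes dense-core vesicles for release, had 47.1 and 32.8 CPM in the Nup358GLKD libraries, against 19.7 and 16.9 CPM in the Control libraries, and rose 2.19-fold (log2 change 1.13, SE 0.23, adjusted p = 0.0489). The call was lost without a filter (0.0581) and with the filter raised to 5 CPM (0.0508), within a range of 0.000553 to 0.354. Cals, the calsyntenin gene, had 131 and 142 CPM in the Nup358GLKD libraries, against 83.9 and 81.9 CPM in the Control libraries, and rose 1.65-fold (log2 change 0.72, SE 0.11, adjusted p = 0.0332). CG11155 had 18.2 and 10.6 CPM in Nup358GLKD and 7.26 and 6.28 CPM in Control without passing (log2 change 1.09, adjusted p = 0.0841). The other 7 tested members of the list had adjusted p between 0.0648 and 0.262. They include unc-13, a synaptic vesicle priming gene, with 205.3 and 185 CPM in Nup358GLKD and 158 and 149.9 CPM in Control, and the calcium pump gene PMCA, with 357 and 447 CPM in Nup358GLKD and 327 and 332 CPM in Control. Syt7, a synaptotagmin gene, was low, with 0.935 and 2.28 CPM in Nup358GLKD and 0.335 and 0.293 CPM in Control, and passed with DESeq2 and with the replicate block.

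Some genes of this list, such as unc-13, are best known from neurons, and markers of neurons were scarce in all libraries. The summed level of 7 neuron markers was 13.1 and 8.97 CPM in the Nup358GLKD libraries and 4.70 and 5.09 CPM in the Control libraries, most of it from elav. This neuronal RNA-binding protein gene had 9.89 and 7.05 CPM in Nup358GLKD and 2.66 and 3.14 CPM in Control, and rose 2.92-fold (adjusted p = 0.0408). The active zone gene brp was lower, at 0.0922 and 0.133 CPM in Nup358GLKD and 0.415 and 0.276 CPM in Control, without passing (log2 change −1.61, adjusted p = 0.0852). Syn was higher in both knockdown libraries without passing, at 2.37 and 1.55 CPM in Nup358GLKD and 1.46 and 1.48 CPM in Control (log2 change 0.41, adjusted p = 0.38). The synaptic vesicle gene nSyb was at 0.216 and 0.0332 CPM in Nup358GLKD and 0.0797 and 0.0813 CPM in Control. For para the values were 0.40 and 0.0831 CPM in Nup358GLKD and 0.0798 and 0.0975 CPM in Control. Syt1 and Rdl were under 0.1 CPM in every library, with Rdl at 0 in both Control libraries. The part of neuronal RNA in these changes was not tested.

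**Figure D4:**
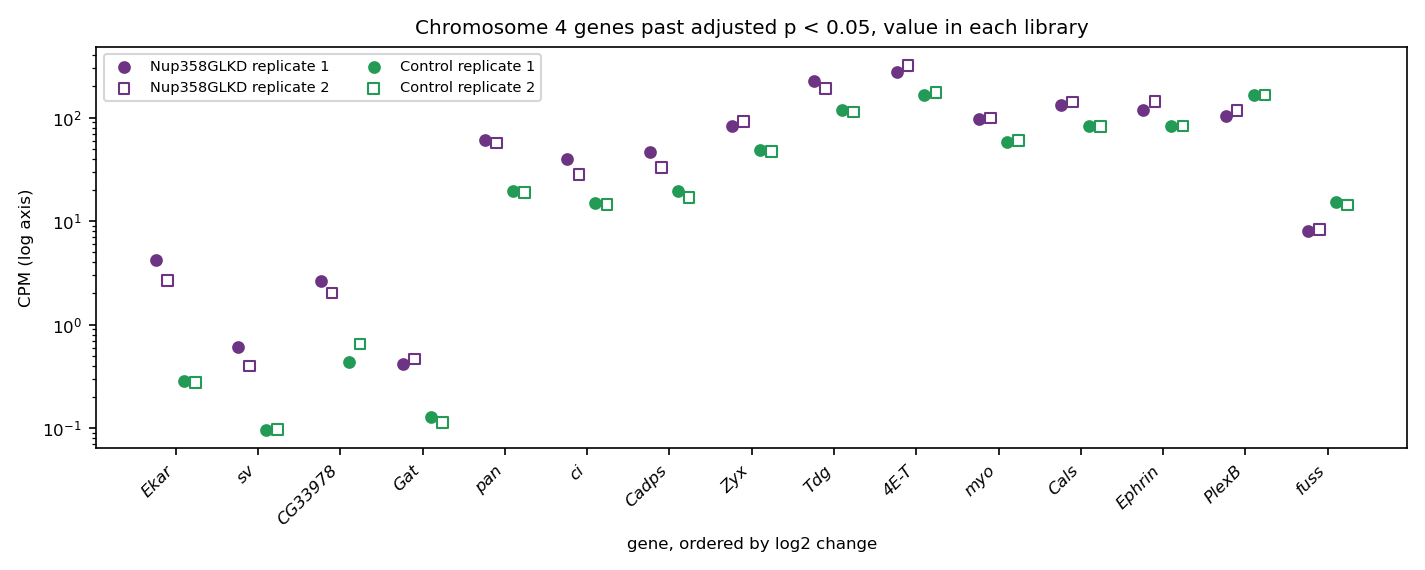
CPM (log axis) in each of the 4 libraries for the 15 members past an adjusted p of 0.05, ordered by log2 change from Ekar (12.1-fold higher) to fuss (1.8-fold lower). For each gene the Nup358GLKD libraries stand left of the Control libraries, and each pair of groups is separate in all 15 genes.

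The other members that rose serve varied functions. 4E-T, a partner of the cap-binding protein that represses translation and acts in RNA granules, had 277 and 321 CPM in the Nup358GLKD libraries, against 166 and 175 CPM in the Control libraries (1.76-fold higher, log2 change 0.81, SE 0.13, adjusted p = 0.0352). Tdg, a thymine DNA glycosylase gene, had 226 and 191 CPM in Nup358GLKD, against 119 and 114 CPM in Control (1.79-fold higher, adjusted p = 0.0358). The adhesion protein gene Zyx (zyxin) had 83.4 and 92.1 CPM in Nup358GLKD, against 48.2 and 47.4 CPM in Control (1.83-fold higher, log2 change 0.88, SE 0.12, adjusted p = 0.0313). CG33978 had 2.64 and 2.03 CPM in Nup358GLKD, against 0.431 and 0.650 CPM in Control (4.31-fold higher, adjusted p = 0.0399). In each of these 4 genes the groups did not overlap. CG33978 was the only one to pass among 10 tested members outside the role lists (10%, beside 9.54% of all features). All 10 had a positive log2 change, beside 50.7% of all features, with a median of 0.82. Some of the 10, CG33978 among them, were under 5 CPM, where 75% of other protein-coding genes had a positive change.

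Of 4 genes of RNA and protein turnover 4E-T alone passed (25% higher, beside 9.54% of all features). Of 6 tested genes of metabolism and mitochondria 0 passed in edgeR. At an unadjusted p under 0.05, 3 of the 6 were higher and 0 lower, beside 23.2% and 22% of all features. DESeq2 called 3 higher, beside 18.9% of all features, and limma-voom 0. ATPsynbeta, the beta subunit of ATP synthase, had 2176 and 2009 CPM in Nup358GLKD and 1583 and 1543 CPM in Control without passing (log2 change 0.42, adjusted p = 0.0849). The mitochondrial membrane protein gene Mpv17 had 14.4 and 9.51 CPM in Nup358GLKD and 17.9 and 18.1 CPM in Control (adjusted p = 0.151), and an antisense RNA covers 94.6% of its exon length. Per kilobase of exon, ATPsynbeta was the most abundant member at 877 CPM per kb in Nup358GLKD and 655 in Control. It was followed by CG11076 (139 in Nup358GLKD and 125 in Control), the vesicle GTPase gene Arf4 (129 and 116), the complex I subunit gene ND-49 (109 and 119.9) and the proteasome shuttle gene Rad23 (92.4 and 109). None of these 5 genes passed. The groups overlapped only for Arf4 among them. ATPsynbeta and CG11076 were higher, and ND-49 and Rad23 lower, in both knockdown libraries than in either Control library.

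Several of the largest fold changes stood in a single library or beside markers of other cells. The muscle gene bt, which encodes the giant sarcomere protein projectin, had 142 and 35.3 CPM in the Nup358GLKD libraries, against 25.7 and 21.5 CPM in the Control libraries, without passing (log2 change 1.91, adjusted p = 0.122). Replicate 1 stood far above the other 3 libraries. CG1674 had 17.3 and 4.44 CPM in Nup358GLKD and 3.93 and 3.35 CPM in Control (adjusted p = 0.167). CG33521 had 10.9 and 4.21 CPM in Nup358GLKD and 3.16 and 2.82 CPM in Control (adjusted p = 0.134). The summed level of 5 other muscle genes, Mhc among them, was 973 and 203 CPM in the Nup358GLKD libraries and 236 and 183 CPM in the Control libraries, with 0 of 5 passing in edgeR or limma-voom and 1 with DESeq2 (1 was higher at an unadjusted p under 0.05 in edgeR). In all 5, as in bt, Nup358GLKD replicate 1 had the highest value. The lipoprotein gene apolpp, expressed mainly in the fat body, had 20.9 and 36.0 CPM in Nup358GLKD and 14.5 and 9.38 CPM in Control (log2 change 1.25, adjusted p = 0.0852). Of 4 tested hemocyte and fat body markers, 2 rose in edgeR (50%, beside 9.54% of all features), both of them genes of the fat body. DESeq2 called 4 higher and 0 lower, beside 18.9% and 19% of all features. Lsp2, a storage protein gene, had 16.2 and 17.9 CPM in Nup358GLKD and 0.271 and 0.732 CPM in Control (34.0-fold higher, adjusted p = 0.028). Fbp1, the receptor gene for such proteins, had 1.04 and 1.79 CPM in Nup358GLKD and 0.112 and 0.276 CPM in Control (7.28-fold higher, adjusted p = 0.0478, lost with library totals and without a filter). Hml, of the same list, had 6.81 and 0.847 CPM in Nup358GLKD and 0.575 and 0.553 CPM in Control (adjusted p = 0.139). For srp the values were 108 and 114 CPM in Nup358GLKD and 76.2 and 85.8 CPM in Control (adjusted p = 0.0662). NimC1 was under 0.1 CPM in every library and was below the filter. The part of these tissues in the results was not tested.

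Most markers of the main ovarian cells had a positive log2 change, and few passed in edgeR. The summed level of 8 germline markers was 7811 and 7460 CPM in the Nup358GLKD libraries and 4698 and 4740 CPM in the Control libraries, most of it from orb, bru1 and osk. Of the 8, 2 rose (orb and bru1, 25%, beside 9.54% of all features) and 0 fell in edgeR. A positive log2 change was found for 7 of them, with a median of 0.55 over the list. The cystoblast gene bam was lower in both knockdown libraries without passing, at 12.8 and 44.8 CPM in Nup358GLKD and 63.9 and 69.9 CPM in Control (log2 change −1.22, adjusted p = 0.206). The summed level of 8 follicle cell markers was 7647 and 8428 CPM in Nup358GLKD and 6891 and 6183 CPM in Control. Of these, 1 rose (Fas3, 12.5%) and 0 fell in edgeR. A positive log2 change was found for 7 of them, with a median of 1.17 over the list. At an unadjusted p under 0.05, 4 germline and 5 follicle cell markers were higher, beside 23.2% of all features. DESeq2 called 4 and 5 higher, beside 18.9%. In neither list was any gene lower at an unadjusted p under 0.05 or with limma-voom, and DESeq2 called 0 lower in both. None of the markers of either list was at 0 in all libraries, and their part in the chromosome 4 changes was not tested. In these bulk samples, fewer cells of a type and less RNA per cell cannot be told apart.

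Of 12 genes for proteins that bind or mark chromosome 4 or its heterochromatin, 1 rose, 4 fell and 7 missed the threshold. That is 8.33% higher and 33.3% lower, beside 9.54% and 9.02% of all features, with a median log2 change of −0.30. Pof, the protein that coats chromosome 4, had 15.7 and 22.6 CPM in the Nup358GLKD libraries, against 44.9 and 48.8 CPM in the Control libraries, and fell 2.44-fold (log2 change −1.29, SE 0.23, adjusted p = 0.0399). The methyltransferase gene egg had 51.9 and 64.2 CPM in Nup358GLKD, against 104 and 106 CPM in Control, and fell 1.8-fold (log2 change −0.85, adjusted p = 0.0399). Its cofactor gene wde fell 2.22-fold and HP4, which encodes a partner of heterochromatin protein 1, fell 2.09-fold (adjusted p = 0.028 and 0.0432). The kinase gene JIL-1 rose 2.01-fold (adjusted p = 0.033). The gene of heterochromatin protein 1 itself had 253 and 286 CPM in Nup358GLKD and 326 and 330.4 CPM in Control and missed the threshold (log2 change −0.29, adjusted p = 0.132). Of 6 genes of the X-chromosome dosage compensation complex 0 passed in edgeR, DESeq2 or limma-voom, and 0 had an unadjusted p under 0.05 in edgeR. A relation between these genes and the members' levels was not tested.

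The share of single transcripts within genes was also followed. For each tested gene with several RefSeq transcripts, the transcript with the most counts in Control was taken. Its share of the gene's counts was at least 15 percentage points lower in the knockdown, with no overlap between libraries, for 16 of 63 members (25.4%, beside 12.7% of all 5720 such features), and as much higher for 2 members (3.17%, beside 2.83%). Choosing the transcript by its Control level favours a lower share in the knockdown, and RSEM estimates these shares from reads that transcripts have in common. The threshold was set after the values were seen, and no test was made.

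At a mean of 50 CPM or more, 6 of 34 members showed the lower share (17.6%, beside 10.1% of all features at that level). For CaMKII, the calcium/calmodulin-dependent kinase II gene, the main Control transcript made up 20.6% and 26.8% of counts in the Nup358GLKD libraries, against 53.2% and 54.7% in the Control libraries. Another transcript made up 59.4% and 59.9% in Nup358GLKD and 35.6% and 33.9% in Control. The summed level of CaMKII was 166 and 161 CPM in Nup358GLKD and 149.6 and 148.5 CPM in Control (adjusted p = 0.32). For Rad23 the main Control transcript held 48.0% and 61.7% in Nup358GLKD, against 79.9% and 79.6% in Control. For PlexA it held 41.1% and 50.7% in Nup358GLKD, against 63.0% and 61.3% in Control. In contrast, ci used the same transcript for 98.6% and 95.3% of counts in Nup358GLKD and for 99.1% and 98.8% in Control.

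**Figure D5:**
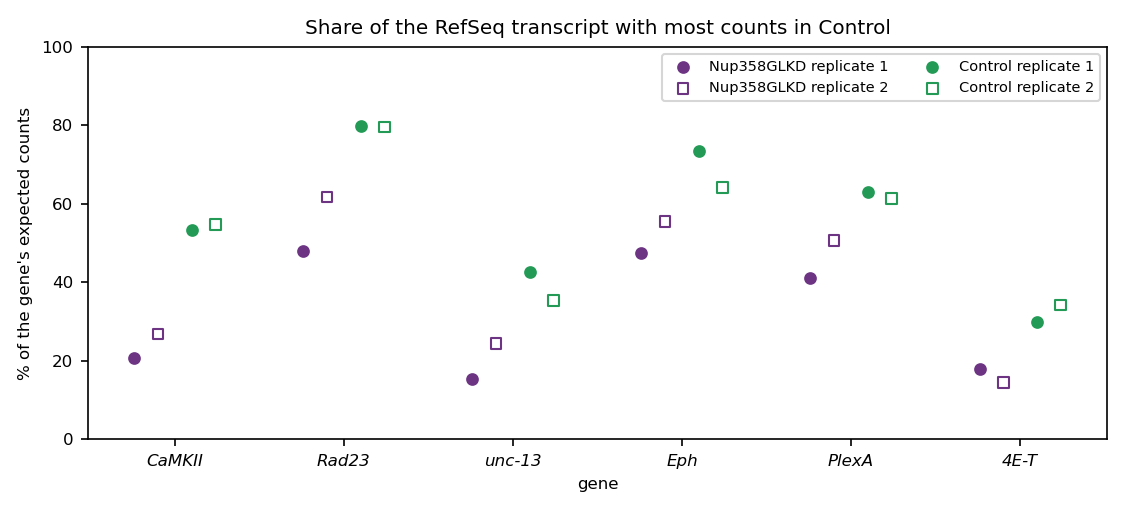
Percentage of a gene's expected counts assigned to the RefSeq transcript that had the most counts in Control, in each library, for the 6 members with a mean of at least 50 CPM whose share was at least 15 points lower without overlap. Nup358GLKD libraries stand left of Control libraries, and in CaMKII they lie at 20.6% and 26.8% beside 53.2% and 54.7%.

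The strand setting of the counting is not given, so genes with shared exon sequence are uncertain. Exons of 8 of the 15 passing members overlap another gene. The largest overlaps are those of Tdg with zfh2 on the other strand (17.7% of the exon length of Tdg), fuss with the RNA gene sphinx (13.1%), and sv with Cals (8.52% of sv and 7.14% of Cals). The exons of pan, Ekar, Gat, Cadps, 4E-T, myo and Ephrin overlap no other gene in the annotation used. The 6 members below the filter, JYalpha, CG32006, dpr7, onecut, fd102C and Actbeta, had at most 21 counts over both libraries of a group, and fd102C had 10 counts in each group.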

How the data were processed

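The table, per its file header, holds expected counts deposited by the authors with rows for RefSeq transcripts, piRNA clusters and transposon families. The submitters' processing notes list the tools Bowtie2 and RSEM with genome build dm3, but give no version, strand setting or filter that could be used here. Of 34437 RefSeq rows, 33997 (98.7%) matched an NCBI RefSeq gene table of Release 6, used for names, chromosome and gene order only, with no coordinates printed. Rows were summed per gene and rounded. The test was edgeR 4.0.16 (R 4.3.3) glmQLFit (robust=TRUE, legacy=FALSE) and glmQLFTest on group, with TMM factors and filterByExpr (minimum count 10, total 15), fitted over all features. The standard error is the log2 change over the root of F, with a prior count of 0.125. Log2 ratios per library add 0.1 CPM. Exon lengths and overlaps come from the Ensembl BDGP6 annotation. Counting intervals are exact (Clopper-Pearson, 95%) and cover counting error only. The code was tested on simulated data.

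Alternatives were scaling by upper quartile, RLE or library total, limma-voom (limma 3.58.1), DESeq2 1.42.0, no filter or a mean CPM of 5, unsummed rows, the replicate number as a block, and each library left out. Members with values were those passing, the 8 largest changes each way at 5 CPM or more, the 5 highest per kilobase and a fixed set of 14 developmental genes. The other members with values, such as CaMKII, were named after their values were seen. The members and gene lists were chosen with earlier results of these data known. Each library was counted as a sample. Replicates differed beyond counting noise, with a chi-square divided by its degrees of freedom of 365 for Nup358GLKD and 16 for Control. Such a spread cannot tell biological from technical repeats.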

Additional observations from a re-analysis of the deposited data

How the results depend on the processing

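The number of members that rose was 13 in the reported fit and 9 to 14 with RLE factors, library totals, limma-voom, no filter, the 5 CPM filter and the replicate block. It was 19 with upper-quartile factors, 27 with DESeq2 and 0 with unsummed RefSeq rows (66 rows higher and 12 lower at an unadjusted p under 0.05). The number that fell was 2 in the reported fit, 0 with upper-quartile factors, unsummed rows and the replicate block, 1 without a filter and with the 5 CPM filter, and 4 with DESeq2. Leaving out 1 library at a time gave 0 to 40 members higher and 0 to 15 lower. A lone library was then assumed to vary like the other group. The median log2 change was 0.42 as reported, 0.44 with RLE factors and DESeq2, 0.33 with library totals, 0.55 with upper-quartile factors, 0.37 without a filter and with the 5 CPM filter, 0.52 with unsummed rows, and 0.36 to 0.38 without each library. The cause of these differences was not tested. Upper-quartile factors moved the median of all features to 0.14, and 61.7% of all calls were then higher, against 51.4% in the reported fit. The members' median stood 0.41 above that of all features with TMM, RLE, total and upper-quartile scaling alike, and 0.20 above it without a filter. The difference in share of counts was 0.101 percentage points and lay between 0.0538 and 0.1485 without each library. All genes that passed lost their calls without either Control library. Among the tested genes followed through the alternatives, signs turned only where a gene had not passed: PlexA to 0.0099 with upper-quartile factors and 0.031 with the 5 CPM filter, and ND-49 to 0.014 with that filter. With each library left out in turn, log2 changes lay between −0.55 and 0.093 for Mitf, −0.34 and 0.061 for PlexA, −0.76 and 0.055 for mav, −0.13 and 0.37 for Arf4, −0.036 and 0.38 for Eph, and −0.014 and 0.19 for lgs.

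With the replicate number as a block, 12 members rose, 11 of them as before, and 0 fell. Over all 10210 features in that fit 1240 rose (12.1%) and 1120 fell, so calls were more frequent than in the reported fit. The members' median log2 change was 0.42. The replicate numbers mark biological repeats and nothing that the groups share. Deviations of same-numbered libraries correlated at 0.145 over all features.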
